A study of Mus musculus with 6 samples.

Results

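The report concerns 10 transcripts best known from blood vessel endothelium and how much of them was sequenced in tumour-associated macrophages (TAMs), the macrophages that live in a tumour. The genes were picked by symbol: Pecam1, Esam, Cdh5, Kdr, Tie1, Tek, Eng, Flt1, Emcn and Plvap. All 10 were found among the 24391 gene rows of the count table and among the 23284 gene rows of the FPKM table. A total of 8 passed the filter on low counts that kept 12710 genes for testing, and Tek and Emcn did not.

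Macrophages were sorted from colorectal tumours of BALB/C mice that either lacked the chemokine gene Ccl5 (CCL5-/-) or were wild type (WT). The CD11bhiF4/80low population, called F4/80low here, had 2 CCL5-/- and 2 WT libraries with read counts. The CD11blowF4/80hi population, called F4/80hi here, had 1 library labelled CCL5-/- and 1 labelled WT, with FPKM only. The labels give neither the age of the mice nor the tumour model. They also leave unsaid whether the replicates come from different animals. The p-values therefore reflect how far these 4 libraries differ, which can be technical in origin.

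Endothelial cells line blood and lymph vessels. They hold to each other through junctional adhesion molecules such as VE-cadherin, and they read growth signals through receptor tyrosine kinases for vascular endothelial growth factor (VEGF) and for angiopoietins. Several of the genes are not exclusive to vessels: Pecam1 is also made by leukocytes and platelets, Esam by platelets, Eng and Flt1 by monocytes and macrophages, and Tek by a subset of tumour monocytes. In bulk RNA, fewer cells of a type and less RNA per cell cannot be told apart.

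The upstream sequence is shown for the 4 receptor tyrosine kinase genes of the angiopoietin and VEGF systems, because these paralogues ranged from no reads at all to steady detection. RefSeq promoters (build GRCm38.p6, 250 bases before to 50 after the start) were matched by symbol for 6 of the 10 genes: Tie1, Tek, Kdr, Flt1, Eng and Emcn. Capitals mark a match on either strand to one of 4 motifs. CAGGAA holds the core of sites for ETS factors. A second form of that core with its flank is CCGGAA. The motif AGATAA is the kind bound by GATA factors. The TATA box was searched as TATAAA. These motifs do not overlap one another in the 4 sequences, which read 5′ to 3′ on the gene's strand. Tie1 lies on the minus strand at chr4:118489800-118490099, Tek on the plus strand at chr4:94739039-94739338, Kdr on the minus strand at chr5:75978406-75978705 and Flt1 on the minus strand at chr5:147725962-147726261.
Tie1: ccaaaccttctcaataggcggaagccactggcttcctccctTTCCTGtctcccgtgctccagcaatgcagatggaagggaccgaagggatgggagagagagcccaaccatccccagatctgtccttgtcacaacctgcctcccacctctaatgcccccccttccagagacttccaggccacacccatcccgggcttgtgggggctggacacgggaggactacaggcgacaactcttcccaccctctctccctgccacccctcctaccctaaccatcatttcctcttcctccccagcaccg
Tek: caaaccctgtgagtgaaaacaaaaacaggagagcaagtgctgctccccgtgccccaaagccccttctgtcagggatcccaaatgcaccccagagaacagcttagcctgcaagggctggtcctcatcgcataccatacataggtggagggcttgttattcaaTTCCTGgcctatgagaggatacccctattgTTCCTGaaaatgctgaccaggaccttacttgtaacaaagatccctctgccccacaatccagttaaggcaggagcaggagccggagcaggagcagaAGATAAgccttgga
Kdr: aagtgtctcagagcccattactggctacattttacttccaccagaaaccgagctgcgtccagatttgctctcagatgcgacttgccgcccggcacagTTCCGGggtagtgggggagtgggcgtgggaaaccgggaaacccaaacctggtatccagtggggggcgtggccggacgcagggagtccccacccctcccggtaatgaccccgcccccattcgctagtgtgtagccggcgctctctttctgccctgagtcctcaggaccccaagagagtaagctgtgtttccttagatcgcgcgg
Flt1: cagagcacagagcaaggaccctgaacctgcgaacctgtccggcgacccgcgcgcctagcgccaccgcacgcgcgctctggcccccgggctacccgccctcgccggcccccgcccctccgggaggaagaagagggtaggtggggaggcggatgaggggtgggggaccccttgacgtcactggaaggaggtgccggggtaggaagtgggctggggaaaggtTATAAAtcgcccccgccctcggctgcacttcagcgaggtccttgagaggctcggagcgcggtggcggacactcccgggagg

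CAGGAA stood in the windows of Tie1, Tek, Eng and Emcn (4 of 6), against 30.6% of all 32851 promoters of the same length. CCGGAA was found in Kdr alone of the 6, against 14.9% of all promoters. AGATAA was found in Tek alone, against 11.2%, and TATAAA in Flt1 alone, against 13.6%, at position -31 from the start. The motifs were chosen with their matches in view, and a match is a description, not a binding site.

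Facts about the libraries bear on every value below. Total counts ranged from 9280635 to 22411342. The ribosomal RNA precursor Rn45s took 50.0% and 58.4% of counts in replicate 1 of CCL5-/- and WT, against 1.38% and 0.844% in replicate 2. Reads outside Rn45s numbered from 3857011 to 22222208 per library. The targeted gene Ccl5 had 35 and 82 reads in CCL5-/- F4/80low libraries and 255 and 3976 in WT ones, which fits their labels, but F4/80hi went against its labels, with 145 FPKM under the CCL5-/- label and 15.7 FPKM under the WT label. In the edgeR test used below, the F4/80low change of Ccl5 was -4.64 on the log2 scale (SE 0.69) with an adjusted p of 1.0. That test, with 2 libraries per group and no term for replicate number, thus did not call even the deleted gene. It leaves the differences between replicate numbers in its residual spread. With that term added, the change of Ccl5 was -4.58 (edgeR adjusted p = 0.099), still not called. The F4/80hi sample titles also name the opposite genotype, and these libraries may be replicate 1 of F4/80low under crossed labels, as shown with their values. The macrophage markers Csf1r and Adgre1 (which encodes F4/80) were detected in all 4 F4/80low libraries, at 126 to 210 and 35.3 to 53.7 CPM.

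The endothelial transcripts were rare in every F4/80low library. Together the 10 genes had 219 and 662 reads in CCL5-/- replicates 1 and 2, and 216 and 885 in WT replicates 1 and 2. As plain CPM over the reads outside Rn45s this was 41.8 (exact Poisson 95% interval 36.4 to 47.7, counting error only) and 35.2 (32.6 to 38.0) in CCL5-/-, against 56.0 (48.8 to 64) and 39.8 (37.2 to 42.5) in WT. The WT replicate 1 library was the highest, and its interval did not overlap those of the other 3 libraries. Pecam1 and Eng made up 62.1% and 51.7% of these reads in CCL5-/- and 45.4% and 61.9% in WT.

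Levels per length were compared as RPKM, the reads scaled by the length of GENCODE M21 exon sequence and by the library's reads outside Rn45s. Eng, the endoglin co-receptor for transforming growth factor beta family ligands, was at 2.87 and 2.78 RPKM in CCL5-/- and 2.05 and 2.99 in WT. It ranked highest in 3 libraries, and Pecam1 ranked highest in WT replicate 1, with Poisson intervals there that overlapped (2.12 to 3.5 for Pecam1 and 1.4 to 2.89 for Eng). Plvap, which forms the diaphragms of endothelial fenestrae and caveolae, came next with 1.06 and 1.77 RPKM in CCL5-/- and 1.57 and 1.04 in WT. In CCL5-/- replicate 2 it stood above Pecam1, and the intervals did not overlap there (1.37 to 2.25 for Plvap, 0.927 to 1.32 for Pecam1).

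Esam, Cdh5, Flt1, Kdr and Tie1 lay between 0.0776 and 1.48 RPKM in all 4 libraries, and their order changed from library to library. Cdh5 was above Kdr in 3 of the 4, and the reverse held in WT replicate 2 with overlapping intervals (0.181 to 0.323 for Kdr and 0.139 to 0.344 for Cdh5). Emcn and Tek were lowest throughout, at no more than 0.144 and 0.0451 RPKM. For scale, Csf1r was at 59.6 and 31.7 RPKM in CCL5-/- and 50.2 and 35.9 in WT, and Adgre1 at 27.2 and 15.8 in CCL5-/- and 16.6 and 21.9 in WT. The most abundant endothelial transcript thus stayed below Csf1r and Adgre1 in each F4/80low library. This does not hold for every macrophage gene. In reads not scaled for length, Mertk had 53 and 108 in replicate 2 of CCL5-/- and WT, against 212 and 269 for Eng. In replicate 1 Mertk had 77 and 86, against 61 and 32 for Eng.

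**Figure D1:**
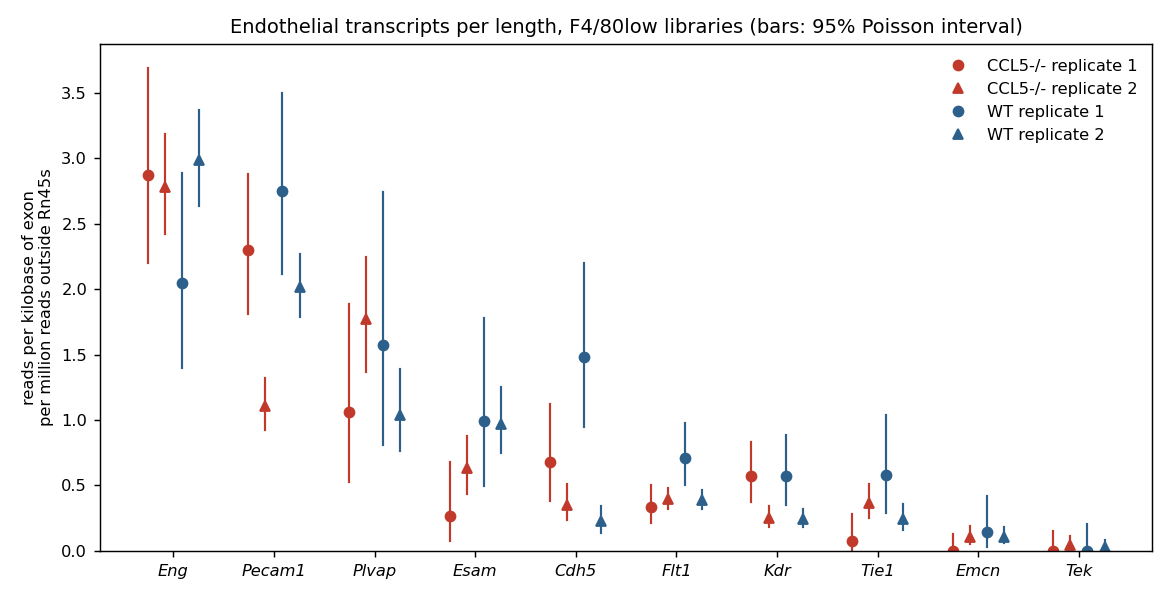
Level per length of the 10 endothelial transcripts in each F4/80low library (y axis: RPKM over reads outside Rn45s; x axis: genes ordered by their mean). Red is CCL5-/- and blue is WT, circles are replicate 1 and triangles replicate 2, and bars are exact 95% Poisson intervals; Eng and Pecam1 lead in 3 libraries, while Emcn and Tek lie near 0.

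The genotype comparison set CCL5-/- against WT libraries of the F4/80low population. None of the 8 tested endothelial genes passed (edgeR quasi-likelihood test, Benjamini-Hochberg adjustment over all genes), and 0 of all 12710 genes (0%) passed either. At an unadjusted p under 0.05 there were 0 of the 8 and 41 of all genes, and DESeq2 called 1 gene in all and 0 of the 8. With the replicate number added as a term, edgeR called 0.0787% of all genes (10) and 0 of the 8. The fitted log2 change was below 0 for 6 of the 8, against 51.8% of all tested genes. Its median was -0.62 over the 8 and -0.01 over all genes. Without WT replicate 1 the median over the 8 was -0.18, and within same-numbered pairs it was -0.94 for replicate 1 and -0.04 for replicate 2.

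Of the 3 junction genes, Pecam1 and Esam had genotype groups that did not overlap in CPM scaled for library composition, while those of Cdh5 did. Pecam1 encodes PECAM-1 (CD31), which holds neighbouring cells together and guides leukocyte passage (chromosome 11, 106654217 to 106750628, GRCm38). It had 75 and 130 reads in CCL5-/- and 66 and 279 in WT. On the TMM-scaled CPM scale (CPM after scaling for library composition) it was at 8.72 and 4.77 in CCL5-/-, against 11.3 and 9.17 in WT. Both CCL5-/- libraries lay below both WT libraries on that scale, and the mean was 6.75 ± 2.79 CPM in CCL5-/- and 10.3 ± 1.53 CPM in WT (SD, n = 2 each). As RPKM over the reads outside Rn45s the groups overlapped, at 2.3 and 1.11 in CCL5-/- and 2.75 and 2.02 in WT. The log2 change of Pecam1, -0.61 (SE 0.47), did not pass (edgeR adjusted p = 1.0). It was -1.05 without CCL5-/- replicate 1 and -0.23 with CCL5-/- replicate 2 left out.

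Esam, a junctional adhesion molecule of the immunoglobulin family (chromosome 9, 37528078 to 37538319), had 4 and 34 reads in CCL5-/- and 11 and 62 in WT. Its level was 0.465 and 1.25 CPM in CCL5-/-, against 1.89 and 2.04 CPM in WT, so the groups did not overlap. The log2 change was -1.13 (SE 0.73, edgeR adjusted p = 1.0). It moved to -2.06 without CCL5-/- replicate 2 and to -0.61 without CCL5-/- replicate 1, and stayed below 0 in each case. Within pairs the ratio of CCL5-/- to WT was 0.246 in replicate 1 (exact conditional 95% interval 0.0571 to 0.83) and 0.613 in replicate 2 (0.391 to 0.945). These intervals cover counting error between 2 libraries only, not the genotypes.

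For Pecam1 the same ratios were 0.769 (0.545 to 1.09) and 0.521 (0.419 to 0.643). The larger difference thus fell in the replicate 2 pair for Pecam1 and in the replicate 1 pair for Esam.

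Cdh5 encodes VE-cadherin, the adhesion protein of endothelial adherens junctions (chromosome 8, 104101625 to 104144511). Its reads numbered 15 and 28 in CCL5-/- and 24 and 21 in WT. The levels of 1.74 and 1.03 CPM in CCL5-/- fell inside the WT range of 4.12 and 0.69 CPM. The 2 WT libraries were the highest and the lowest of the 4. The log2 change was -0.74 (SE 0.99, edgeR adjusted p = 1.0), and it was 0.99 without WT replicate 1 and -1.59 without WT replicate 2. The pairs pointed in opposite directions, with ratios of 0.423 (0.206 to 0.84) in replicate 1 and 1.49 (0.816 to 2.76) in replicate 2.

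**Figure D2:**
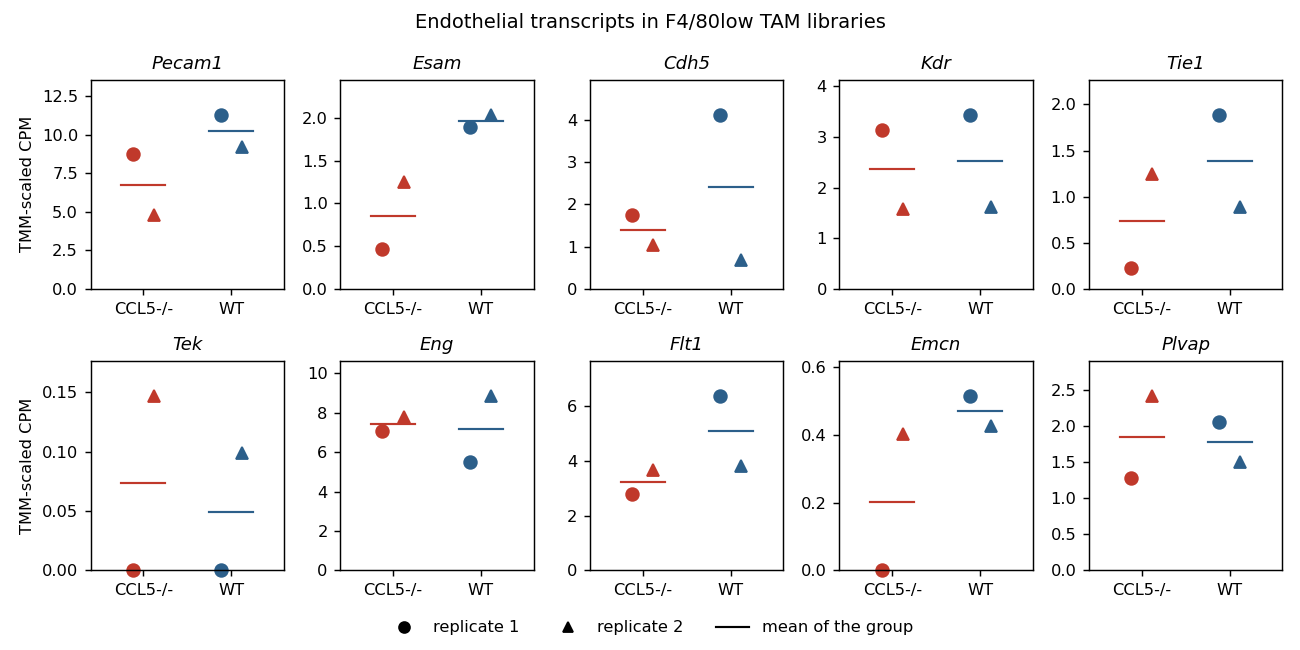
TMM-scaled CPM of each endothelial transcript in the F4/80low libraries, with CCL5-/- in red and WT in blue. Circles are replicate 1, triangles replicate 2 and lines the mean of 2 libraries; both CCL5-/- values lie below both WT values for Pecam1, Esam, Flt1 and Emcn, and the groups overlap for the others.

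Of the VEGF receptor genes, Flt1 was lower in both CCL5-/- libraries than in either WT library on TMM-scaled CPM, and Kdr overlapped. Flt1 encodes VEGFR1, which binds VEGF-A, VEGF-B and placental growth factor and has a soluble decoy form (chromosome 5, 147561604 to 147726011). It had 24 and 100 reads, or 2.79 and 3.67 CPM, in CCL5-/-, and 37 and 116 reads, or 6.36 and 3.81 CPM, in WT. The groups did not overlap, but the nearest values, 3.67 CPM in CCL5-/- and 3.81 CPM in WT, both from replicate 2, were close. As RPKM over the reads outside Rn45s the groups did overlap, at 0.339 and 0.394 in CCL5-/- and 0.71 and 0.387 in WT. The log2 change was -0.63 (SE 0.51, edgeR adjusted p = 1.0), and it was -0.21 without WT replicate 1. The ratio of CCL5-/- to WT was 0.439 (0.251 to 0.753) in the replicate 1 pair and 0.963 (0.73 to 1.27) in the replicate 2 pair.

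Kdr encodes VEGFR2, the main signalling receptor for VEGF-A in endothelium (chromosome 5, 75932827 to 75978458). It had 27 and 43 reads in CCL5-/- and 20 and 49 in WT. Its level was 3.14 and 1.58 CPM in CCL5-/-, against 3.44 and 1.61 CPM in WT, with nearly the same value in both genotypes of each replicate number. The log2 change was -0.08 (SE 0.69, edgeR adjusted p = 1.0), with ratios of 0.913 (0.494 to 1.72) and 0.98 (0.635 to 1.51) in the pairs. These intervals cover counting error alone.

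Of the Tie receptor genes, Tek was barely detected and Tie1 had few reads. Tek encodes TIE2, the angiopoietin receptor (chromosome 4, 94739289 to 94874976). It had 0 and 4 reads in CCL5-/- and 0 and 3 in WT. A count of 0 allows up to 3 reads, or 0.572 and 0.778 plain CPM over the reads outside Rn45s in replicate 1 of CCL5-/- and WT. Tie1, a related receptor that binds no known angiopoietin tightly by itself and modulates TIE2 (chromosome 4, 118471191 to 118490061), had 2 and 34 reads in CCL5-/- and 11 and 27 in WT. Its levels of 0.232 and 1.25 CPM in CCL5-/- overlapped the 1.89 and 0.888 CPM of WT. The log2 change was -0.75 (SE 0.99, edgeR adjusted p = 1.0), and leaving out 1 CCL5-/- library gave -0.04 (replicate 1 left out) or -2.48 (replicate 2 left out). The ratio was 0.123 (0.0133 to 0.564) in the replicate 1 pair, which rests on 2 reads in CCL5-/-, and 1.41 (0.824 to 2.42) in the replicate 2 pair.

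Eng (chromosome 2, 32646595 to 32682669) had 61 and 212 reads, or 7.09 and 7.79 CPM, in CCL5-/-, and 32 and 269 reads, or 5.5 and 8.84 CPM, in WT. The CCL5-/- values lay inside the WT range. Its mean was 7.44 ± 0.491 CPM in CCL5-/- and 7.17 ± 2.37 CPM in WT (SD, n = 2 each), and the log2 change was 0.04 (SE 0.43, edgeR adjusted p = 1.0).

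Plvap (chromosome 8, 71497765 to 71511752) had 11 and 66 reads, or 1.28 and 2.42 CPM, in CCL5-/-, and 12 and 46 reads, or 2.06 and 1.51 CPM, in WT. The groups overlapped, and the log2 change was 0.10 (SE 0.64, edgeR adjusted p = 1.0). The ratio was 0.62 (0.248 to 1.54) in the replicate 1 pair and 1.6 (1.08 to 2.39) in the replicate 2 pair. Emcn, which encodes the endothelial sialomucin endomucin (chromosome 3, 137341067 to 137432185), had 0 and 11 reads in CCL5-/- and 3 and 13 in WT. It did not pass the filter, and without the filter its log2 change was -0.92 (SE 1.54, edgeR adjusted p = 1.0). The nearest levels were 0.404 CPM in CCL5-/- and 0.427 CPM in WT, both from replicate 2.

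On TMM-scaled CPM, groups did not overlap for 3 of the 8 tested genes (Pecam1, Esam and Flt1). All were lower in CCL5-/-, where 8.24% of all tested genes did so in that direction. None was higher without overlap, against 8.36% of all tested genes. The count depends on the scaling: as RPKM over the reads outside Rn45s, the groups of Pecam1 and Flt1 overlapped and those of Esam did not. The share of all tested genes was not computed on that scale. Within pairs, 7 of 8 were lower in CCL5-/- in replicate 1, against 49.3% of all tested genes, and 5 of 8 in replicate 2, against 52.3%. Pecam1, Esam, Kdr and Flt1 were lower in both pairs (4 of 8, against 26.5% of all tested genes). These counts are on TMM-scaled CPM, where the replicate 2 ratios of Kdr and Flt1 were close to 1, at 0.98 and 0.963. As RPKM over the reads outside Rn45s, both genes were slightly higher in CCL5-/- in replicate 2. Kdr was at 0.253 in CCL5-/- and 0.244 in WT there, and Flt1 at 0.394 and 0.387. The counting interval excluded a ratio of 1 for 4 genes in replicate 1 (Esam, Cdh5, Tie1 and Flt1), where it did so for 33.3% of all tested genes. In replicate 2 it did so for 3 genes (Pecam1 and Esam lower, Plvap higher) and for 59.4% of all tested genes. Such an interval compares 2 libraries and is passed by many genes, so these counts do not set the endothelial genes apart. In the authors' deposited table, where any shrinkage of the log2 changes is not stated, the values of the 10 genes ran from -0.27 for Pecam1 to 0.03 for Plvap, each with an adjusted p of 1.0. For Ccl5 the authors' deposited table lists -1.68 on the log2 scale (adjusted p = 2.6e-05).

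**Figure D3:**
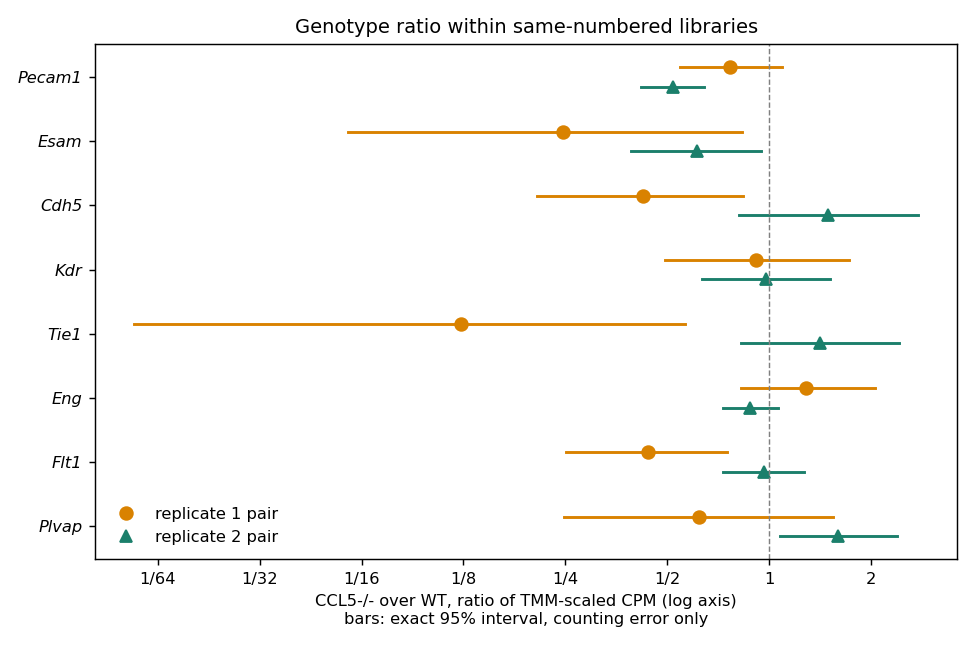
Ratio of CCL5-/- to WT for the 8 tested endothelial transcripts within replicate 1 (orange circles) and replicate 2 (green triangles), on a log axis, with exact 95% intervals for counting error. The interval lies below 1 in both pairs for Esam, in replicate 1 alone for Cdh5, Tie1 and Flt1 and in replicate 2 alone for Pecam1, and above 1 in replicate 2 for Plvap.

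The libraries also split by replicate number: with genotype as a term, edgeR called 4047 of 12710 genes (31.8%), with 1763 higher in replicate 2 (13.9%) and 2284 lower (18.0%). None of the 8 endothelial genes passed, and 1 had an unadjusted p under 0.05, where 42.6% of all genes did. DESeq2 called 2836 genes and likewise 0 of the 8. Cdh5 came nearest, at 1.03 and 0.69 CPM in replicate 2 of CCL5-/- and WT, against 1.74 and 4.12 CPM in replicate 1. Its log2 change was -1.68 (SE 0.63, edgeR adjusted p = 0.056). With 1 library left out, the genotype term takes up that library's partner, and the value rests on the other genotype's pair alone. Cdh5 was thus at -2.56 and -2.55 without CCL5-/- replicate 2 or 1, both from the WT pair. It was at -0.73 and -0.76 without WT replicate 1 or 2, both from the CCL5-/- pair. It passed with DESeq2's size factors in edgeR (adjusted p = 0.037), in limma-voom (0.03) and without the genotype term (0.046), over a range of 0.03 to 0.15 in 6 alternatives.

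Kdr was lower in both replicate 2 libraries, at 1.58 and 1.61 CPM for CCL5-/- and WT, against 3.14 and 3.44 CPM in replicate 1 (log2 change -1.04, SE 0.51, edgeR adjusted p = 0.13). Eng was higher in both, at 7.79 and 8.84 CPM in replicate 2, against 7.09 and 5.5 CPM in replicate 1 (log2 change 0.39, SE 0.31, edgeR adjusted p = 0.36). On TMM-scaled CPM, replicate numbers did not overlap for these 3 genes alone of the 8. Cdh5 and Kdr were lower in replicate 2, as were 34.0% of all tested genes, and Eng was higher, as were 34.2%. As RPKM over the reads outside Rn45s, Cdh5 and Kdr again did not overlap. Eng did, at 2.78 and 2.99 in replicate 2 of CCL5-/- and WT against 2.87 and 2.05 in replicate 1. Pecam1 did not overlap on that scale, at 1.11 and 2.02 against 2.3 and 2.75. In the edgeR fit, the log2 change from replicate 1 was -0.58 for Pecam1 and between -0.19 and 0.65 for Esam, Tie1, Flt1 and Plvap, with adjusted p-values of at least 0.15.

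A list of 30 further endothelial markers had 19 tested genes, of which 0 passed for genotype in edgeR. The log2 change was below 0 for 11 of them, and the median was -0.15. By smallest p these were Rasip1 (-0.97, SE 0.69), Apold1 (1.29, SE 1.01), the endothelial nitric oxide synthase gene Nos3 (-1.27, SE 1.01), the adhesion gene Icam2 (-0.70, SE 0.60), the caveolin gene Cav1 (0.37, SE 0.40) and Egfl7 (-0.80, SE 0.94). Nos3 had 13 and 77 reads in CCL5-/- and 57 and 38 in WT, with WT replicate 1 highest at 9.79 CPM and the other 3 libraries between 1.25 and 2.83 CPM. Egfl7 had 3 and 47 reads in CCL5-/- and 16 and 37 in WT, and its highest level was again in WT replicate 1, at 2.75 CPM. Others did not share this order: Apold1 was highest in CCL5-/- replicate 1, at 11.9 CPM, and Cav1 was lowest in WT replicate 1, at 242 and 281 CPM in CCL5-/- and 196 and 207 CPM in WT.

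Between replicate numbers, 9 of those 19 markers passed (31.8% of all tested genes did), with 2 higher (13.9% of all) and 7 lower (18.0% of all) in replicate 2. The higher ones, named after their values were seen, were Vwf, which encodes von Willebrand factor of endothelium and platelets, and Ecscr. Vwf was at 5.4 and 5.85 CPM in replicate 2 of CCL5-/- and WT, against 0.581 and 1.72 CPM in replicate 1 (log2 change 2.4, SE 0.5, edgeR adjusted p = 0.0023). Of 12 platelet genes, 6 were also higher in replicate 2 (13.9% of all tested genes were), and their part in the Vwf values was not tested. Apold1 was lower, at 2.57 and 1.15 CPM in replicate 2, against 11.9 and 4.98 CPM in replicate 1 (log2 change -2.16, edgeR adjusted p = 0.00067).

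Ligands and partners of the receptors, chosen by role, were measured in the same libraries. Vegfa, which encodes the ligand of both VEGF receptors, was at 204 and 146 CPM in CCL5-/- and 175 and 167 CPM in WT (log2 change 0.04, SE 0.41, edgeR adjusted p = 1.0). Per length it was at 49.2 to 78.1 RPKM in the 4 libraries, above both receptors. Vegfb and Pgf, which encode ligands of VEGFR1, had genotype changes of 0.21 (SE 0.54) and -0.27 (SE 0.65), neither past the threshold. Both passed between replicate numbers, with log2 changes of 0.92 (SE 0.27, edgeR adjusted p = 0.019) for Vegfb and 1.13 (SE 0.33, edgeR adjusted p = 0.018) for Pgf.

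Of the TIE2 ligands, Angpt2 was at 4.65 and 4.41 CPM in CCL5-/- and 4.29 and 4.87 CPM in WT. Angpt1 had 1 and 10 reads in CCL5-/- and 1 and 21 in WT, too few for the test. Acvrl1, the receptor that endoglin assists, was at 17.4 and 24.8 CPM in CCL5-/- and 19.1 and 23.0 CPM in WT (log2 change 0.00, SE 0.38). On the list of 36 VEGF, angiopoietin, transforming growth factor and Notch signalling genes, 0 of 27 tested passed for genotype in edgeR, with a median of -0.04. The smallest p-values there belonged to Apln (0.60, SE 0.41), S1pr1 (-0.43, SE 0.54), Hes1 (-0.42, SE 0.55), Figf (0.36, SE 0.50), Smad1 (-0.19, SE 0.35) and Nrp2 (0.25, SE 0.48). Between replicate numbers 15 of the 27 passed, 5 higher and 10 lower in replicate 2, where 31.8% of all tested genes passed, 13.9% higher and 18.0% lower. On the list of 20 junction partners, 0 of 15 tested passed for genotype, with F11r, a junctional adhesion molecule, at -1.43 (SE 0.65), Magi1 at -0.56 (SE 0.55), Jam2 at -0.83 (SE 0.81) and Ctnnd1 at 0.26 (SE 0.40).

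Markers of other cell types moved along with some of these values, and their part in the results was not tested. The 12 pericyte and smooth muscle genes, which mark the cells around vessels, summed to 22.2 and 22.5 CPM in CCL5-/- and 49.5 and 22.3 CPM in WT, so WT replicate 1 was highest, as it was for the 10 endothelial genes (25.5 and 24.3 CPM in CCL5-/-, 37.1 and 29.1 CPM in WT). The 30 further endothelial markers summed to 1050 and 1160 CPM in CCL5-/- and 885 and 944 CPM in WT, where WT replicate 1 was lowest. Abundant genes such as Cav1 weigh most in that sum, while 11 of the 19 tested genes had a log2 change below 0, and Rasip1, Nos3, Icam2 and Egfl7 were each highest in WT replicate 1. The same library was highest for the sums of fibroblast genes (3040 and 2470 CPM in CCL5-/-, 3850 and 1920 CPM in WT), epithelial and tumour genes (116 and 106, against 184 and 104 CPM) and neutrophil genes (790 and 350, against 3880 and 610 CPM). Of the fibroblast sum, Fn1 alone made up 2090 and 1030 CPM in CCL5-/- and 2690 and 723 CPM in WT. Mgp and Pdgfra were also highest in WT replicate 1. Dcn, Lum and Postn were highest in WT replicate 2, and Col1a2 and Fbln2 in CCL5-/- replicate 2. Of the epithelial and tumour sum, Krt20 alone made up 87.1 and 74.1 CPM in CCL5-/- and 149 and 84.9 CPM in WT. Cdh1 was also highest in WT replicate 1, but Krt8 was highest in CCL5-/- replicate 1, and Krt19 and Cldn4 in CCL5-/- replicate 2. Of the 6 tested epithelial and tumour genes, 4 had a log2 change above 0. The sum of macrophage and monocyte genes was highest in WT replicate 2 (9660 and 10900 CPM in CCL5-/-, 9060 and 15200 CPM in WT), as were those of T and NK cell genes (192 and 179, against 114 and 410 CPM) and B and plasma cell genes (99.2 and 128, against 116 and 202 CPM). Macrophage genes did not move as one. Cd14 and Apoe were highest in WT replicate 2. Itgam (580 and 144 CPM in CCL5-/-, 598 and 180 CPM in WT), Ptprc, Csf1r and Mrc1 were higher in both replicate 1 libraries.

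Platelet genes summed to 227 and 207 CPM in CCL5-/- and 222 and 233 CPM in WT. Dendritic cell genes summed to 66.6 and 67.7 CPM in CCL5-/- and 107 and 89.7 CPM in WT, both WT libraries being higher. Mast cell, basophil and eosinophil genes (39.9 and 60.8, against 57.2 and 42.3 CPM) and erythroid genes (at most 1.86 CPM in CCL5-/- and 3.09 CPM in WT) overlapped between genotypes. Lymphatic endothelial genes (168 and 128, against 95 and 128 CPM) consisted mainly of Pdpn, which other cells also make, while the defining lymphatic factor Prox1 was at 0 reads in all 4 libraries. Hepatocyte genes were highest in CCL5-/- replicate 1 (230 and 61.8 CPM in CCL5-/-, 101 and 72.5 CPM in WT). At 0 in all 4 libraries were also the hemoglobin genes Hbb-bs, Hbb-bt, Hba-a1 and Hba-a2, while every fibroblast, macrophage, T and NK cell and dendritic gene in the table had reads in each library. The erythroid gene Alas2 had 15 and 28 reads in CCL5-/- and 16 and 34 in WT. The hemoglobin counts are therefore not taken as absence of erythroid RNA. No gene on any of these lists passed for genotype in edgeR without a replicate term. With it, 4 did, all lower in CCL5-/-: the fibroblast gene Dcn (edgeR adjusted p = 0.024) and the neutrophil genes Camp (0.028), Olfm4 (0.024) and Stfa2l1 (0.0081).

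**Figure D4:**
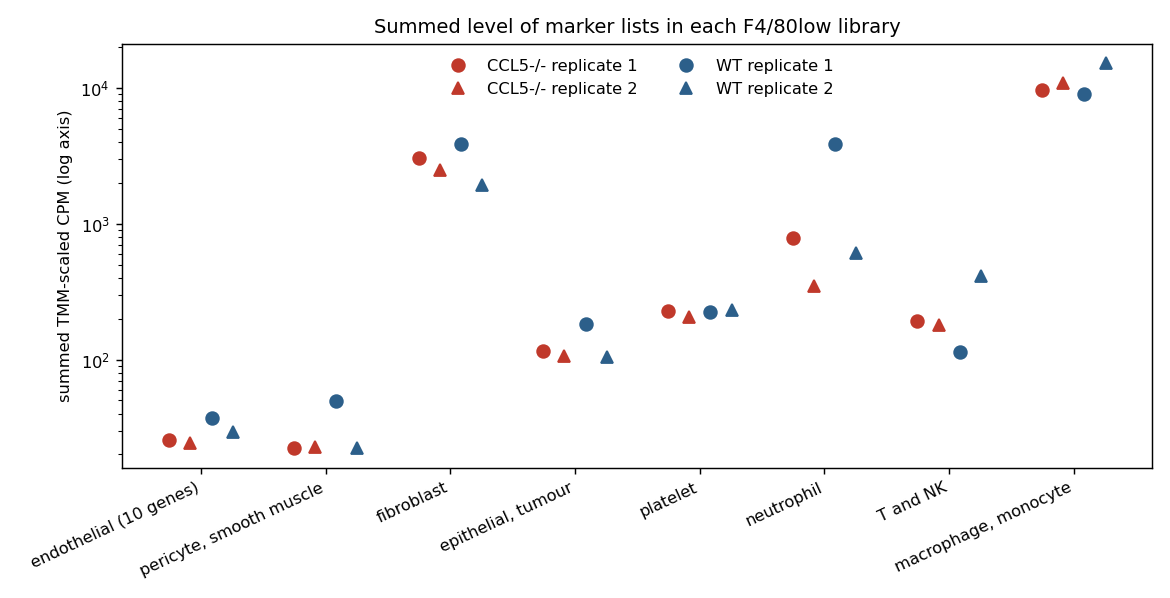
Summed TMM-scaled CPM (log axis) of marker lists in each F4/80low library, CCL5-/- in red and WT in blue, circles for replicate 1 and triangles for replicate 2. WT replicate 1 is highest for the endothelial, pericyte, fibroblast, epithelial and neutrophil lists, and WT replicate 2 for the T and NK and macrophage lists. Krt20 makes up most of the epithelial sum in each library.

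The genes whose pattern was most like the mean profile of the 8 tested endothelial genes were Tpgs2, Trp53rkb, Tmem194b, Slc38a4 and Ing4. Their root mean square difference from that profile was 0.0131 to 0.0386 on the log2(CPM + 1) scale, over 4 libraries and 11160 candidate genes. Tpgs2, the closest, was at 8.95 and 9.25 CPM in CCL5-/- and 13.6 and 9.86 CPM in WT. Each of the 5 was highest in WT replicate 1, as the endothelial profile was, which follows from how they were picked. Single members differed from the mean profile. Pecam1, Cdh5, Kdr, Tie1 and Flt1 were highest in WT replicate 1. Eng was lowest there, Plvap was highest in CCL5-/- replicate 2 and Esam in WT replicate 2.

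The F4/80hi libraries matched the replicate 1 libraries of F4/80low crosswise by label, and they may be the same libraries. Across 8405 genes with at least 100 reads, the log2 ratio between the library labelled WT and the one labelled CCL5-/- had a Pearson r of 0.906 with the log2 ratio of CCL5-/- to WT in replicate 1 of F4/80low, and of 0.0913 with that of replicate 2 (10308 genes). Genes are not independent replicates, and this is a description. Emcn had 0 reads in CCL5-/- replicate 1 and was listed at 0 FPKM in the F4/80hi library labelled WT, and it had 3 reads in WT replicate 1 and 0.589 FPKM in F4/80hi under the CCL5-/- label. Tek had 0 reads in both replicate 1 libraries and was listed at 0 in both F4/80hi libraries. The F4/80hi values are therefore given under their labels, and neither as further support nor as a second population.

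In F4/80hi, 8 of the 10 genes had more FPKM under the CCL5-/- label. The same held for 47.7% of the 11670 genes with at least 1 FPKM in either library, a set that holds 5 of the 10, of which 4 were higher. Esam, Cdh5 and Plvap are in that set only through the library where they were higher. Pecam1 had 4.45 FPKM under the CCL5-/- label and 2.71 FPKM under the WT label, Esam had 1.28 and 0.266 FPKM, and Cdh5 had 1.5 and 0.517 FPKM. On the log2(FPKM + 1) scale, which understates changes of low genes, these differences were 0.56, 0.85 and 0.72. Tie1 had 0.608 FPKM under the CCL5-/- label and 0.1 FPKM under the WT label, Plvap had 1.07 and 0.448, Flt1 had 0.844 and 0.54, and Kdr had 0.902 and 0.73.

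Eng was the one gene in the other direction, with 1.94 FPKM under the CCL5-/- label and 2.18 FPKM under the WT label. No endothelial gene was 2-fold different on that scale, which 2.35% of genes passed upwards and 1.58% downwards under the CCL5-/- label. With a pseudocount of 0.1 in place of 1, Esam, Cdh5, Tie1, Emcn and Plvap passed 2-fold upwards. With 1 library per label there is no replicate check, and under the genotypes of the sample titles each sign turns round.

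**Figure D5:**
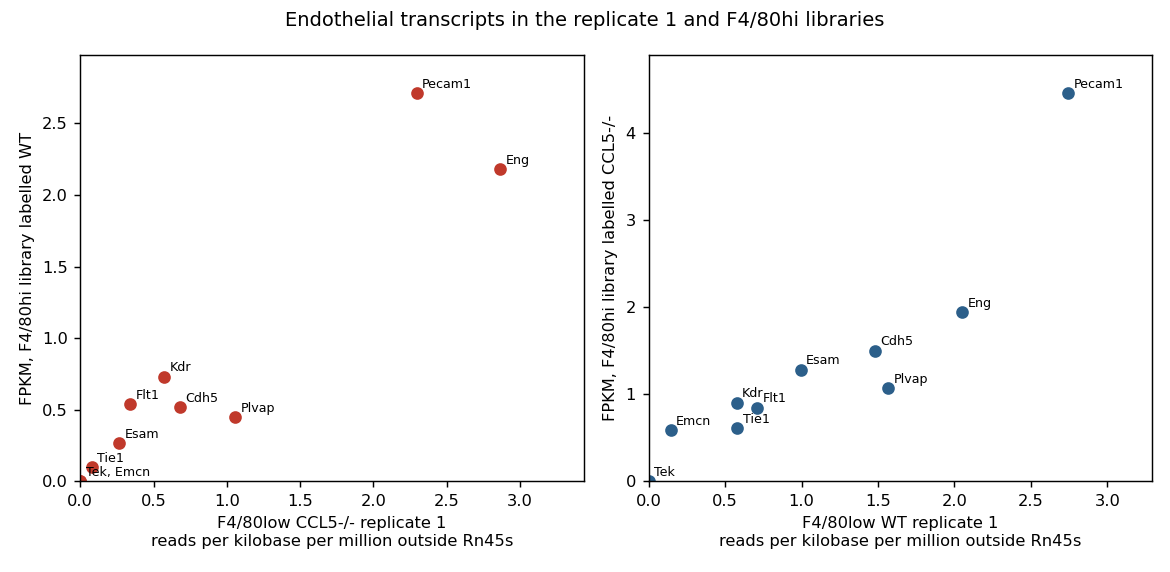
FPKM of the endothelial transcripts in the F4/80hi libraries (y axis) against RPKM over reads outside Rn45s in the replicate 1 libraries of F4/80low (x axis). The left panel sets the library labelled WT against CCL5-/- replicate 1 and the right panel the library labelled CCL5-/- against WT replicate 1; Pecam1 and Eng are highest and Tek is at 0 in both.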

How the data were processed

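Per the labels' protocols, Trizol was used for extraction and a TruSeq RNA kit for the libraries. Aligners and counters named in the submitters' processing notes are STAR, TopHat2 2.1.1, HTSeq and Cufflinks 2.2.1, and they also name DESeq2. The tool and the genome build behind each table, and any use of strand, are not given in the sources used here. Reads of overlapping genes on opposite strands may therefore be mixed. The authors deposited raw read counts and FPKM values. A deposited table of the authors' comparison holds a normalised signal (by its values, counts over a size factor), log2 fold changes, a test score and p-values, per the file headers.

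Groups follow the cell population field of each sample. The test on counts was that of edgeR 4.0.16 under R 4.3.3 (filterByExpr, TMM, robust quasi-likelihood F test, two-sided, Benjamini-Hochberg at 0.05), with genotype alone or with genotype and replicate number. The standard error is the log2 change divided by the square root of F. DESeq2 1.42.0 and limma 3.58.1 (voom) were alternatives. The code was tested on simulated data. Intervals within pairs are exact conditional 95% intervals, and like the floor of 3 counts they cover counting error only. The depth behind FPKM is unknown. Gene positions are those of GENCODE M21 (GRCm38), whose gene bodies overlapped the FPKM table's loci for all 10 genes.

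The genes and lists were chosen with earlier results of these data known. Named were all 10 genes, Ccl5, up to 6 tested genes of the vessel marker and signalling lists and up to 4 of the other lists by smallest genotype p (printed for the lists nearest to the subject), and the 5 genes with the most similar profile. Further names were chosen by role, for a call they carry or after their values were seen.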

Additional observations from a re-analysis of the deposited data

Results flagged for a closer look

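By the labels, both same-numbered F4/80low pairs moved one way and the F4/80hi pair, taken by its labels, moved the other way for 4 endothelial genes. The F4/80hi values are on the log2(FPKM + 1) scale and the F4/80low values are log2 ratios with no pseudocount. Only their signs, not their sizes, can be compared. Pecam1 had a log2 difference of 0.56 in F4/80hi, against -0.38 and -0.94 in the replicate 1 and 2 pairs of F4/80low. Esam had 0.85, against -2.02 and -0.71. Flt1 had 0.26, against -1.19 and -0.05, and Kdr had 0.14, against -0.13 and -0.03. The targeted gene Ccl5 did the same, with 3.12 in F4/80hi against -3.43 and -5.44. Some of the F4/80low signs are weak. The counting interval of the ratio held 1 for Kdr in both pairs, for Flt1 in replicate 2 and for Pecam1 in replicate 1. As RPKM over the reads outside Rn45s, the replicate 2 signs of Kdr and Flt1 turned round. The difference between F4/80hi and F4/80low was not tested, since F4/80hi has 1 library per label. Its sample titles name the opposite genotype, and its libraries match replicate 1 of F4/80low crosswise (Pearson r of 0.906 between log2 ratios across 8405 genes). If they are the same libraries, the opposite signs to replicate 1 follow from the labels, and these values show no difference between populations.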

How the results depend on the processing

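The count of members called for genotype was 0 under every alternative run. The count over all genes was 0 in the reported fit and with another scaling, no filter, Rn45s left out or limma-voom, 1 in DESeq2, 0 to 4 when 1 library was left out, and 10 with the replicate block. The labels do not say what a replicate number marks, and 2 pairs are too few to take it as pairing, although same-numbered libraries deviated together from the group means (correlation of 0.765 over 12710 genes). The block took no endothelial gene past the threshold, with adjusted p-values of 0.81 for Pecam1 and 0.9 for Esam. Among the alternative values of single endothelial genes for genotype, 14 changed sign and 82 did not, and the cause was not tested. In limma-voom Cdh5 was at 0.18, Kdr at 0.01 and Eng at -0.0035. Leaving out 1 library gave log2 changes of -1.59 to 0.99 for Cdh5, -0.58 to 0.54 for Kdr, -0.23 to 0.44 for Eng and -0.46 to 0.51 for Plvap; Kdr was at 0.36, Eng at -0.03 and Plvap at -0.46 without CCL5-/- replicate 2, and Plvap was at -0.13 without WT replicate 2. Single pairs gave -0.69 for Plvap in replicate 1 and 0.57 for Cdh5, 0.49 for Tie1 and -0.18 for Eng in replicate 2. Between replicate numbers, 1 member (Cdh5) was called with DESeq2's size factors, in limma-voom and without the genotype term, against 0 as reported. Leaving out 1 library leaves that fit no residual degrees of freedom, so it gave values and no calls: -1.08 to 2.42 for Tie1 (-1.07 without CCL5-/- replicate 1), -0.44 to 0.94 for Plvap (-0.43) and -0.74 to 0.42 for Flt1 (0.40 without WT replicate 2). Each of these values rests on the pair of the genotype that kept both libraries. In F4/80hi, a pseudocount of 0.1 in place of 1 raised the genes at least 2-fold higher to 503, against 274, and those at least 2-fold lower to 351, against 184, and put 5 of the 10 endothelial genes past 2-fold, while 8 stayed higher in the library labelled CCL5-/-. Depth limits the low genes: in replicate 1, 1 read is worth 0.116 and 0.172 CPM in CCL5-/- and WT.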

Other observations

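Several platelet genes differed by replicate number. Of 12 platelet genes, 6 were higher and 1 (Selp) was lower in replicate 2 (edgeR adjusted p under 0.05), where 13.9% of all tested genes were higher and 18.0% lower. Itga2b, Gp9 and Tubb1 were chosen after their values were seen. Itga2b, the platelet integrin gene, was at 26.0 and 27.4 CPM in replicate 2 of CCL5-/- and WT, against 4.3 and 5.5 CPM in replicate 1. Gp9, a subunit of the von Willebrand factor receptor, had 166 and 224 reads in replicate 2, against 4 and 1 in replicate 1. Tubb1, a tubulin of platelets, had 206 and 262 reads, against 2 and 1. Mmrn1 had 39 and 49 reads in replicate 2 of CCL5-/- and WT and 0 in both replicate 1 libraries, while Ppbp, an abundant platelet chemokine gene, was at 25.9 and 30.2 CPM in replicate 2, against 27.4 and 25.9 CPM in replicate 1.

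Among single vessel-related genes, Lyve1, a hyaluronan receptor of lymphatic endothelium and tissue macrophages, had 84 and 322 reads in CCL5-/- and 37 and 61 in WT. Its levels of 9.76 and 11.8 CPM in CCL5-/- lay above the 6.36 and 2.01 CPM of WT, with a log2 change of 1.42 (SE 0.64, edgeR unadjusted p = 0.072) that did not pass. The matrix gene Mgp had 64 and 540 reads in CCL5-/- and 694 and 785 in WT, with 119 CPM in WT replicate 1 and 7.44 to 25.8 CPM in the other 3 libraries (log2 change -2.39, SE 0.88, edgeR unadjusted p = 0.037, adjusted p = 1.0).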
